A study of Arabidopsis thaliana with 9 samples.

Results

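The 38 probe sets described here were higher in seedlings of the line CAB3::pBVR2 than in No-0 WT, while their mean signals in 35S::pBVR3 lay close to those of No-0 WT. They were selected from the signals themselves, out of 22746 probe sets without controls (0.167%). A probe set was chosen when its mean CAB3::pBVR2 signal was at least 100, its mean was at least 2.38-fold that of No-0 WT, its mean in 35S::pBVR3 lay within 0.35 of No-0 WT on the log2 scale in either direction (the window), means being taken of log2 signals, and all CAB3::pBVR2 arrays lay above all arrays of both other lines. The contrasts between the lines are therefore a description of these probe sets, and no test of them is read for the members.

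RNA abundance was measured on 9 Affymetrix ATH1 arrays, 3 for each line, with 1 array for each independent RNA extraction. No-0 WT is the wild-type parent. 35S::pBVR3 carries a plastid-targeted biliverdin reductase, pBVR, under the 35S promoter, so that phytochromes are inactivated throughout the plant, and CAB3::pBVR2 carries it under the CAB3 promoter, which restricts the inactivation to mesophyll tissue. Each transgene is represented by 1 line. All seedlings received a pulse of red light and 3 days of cold in darkness as seeds, grew for 7 days in continuous far-red light (FRc) and were harvested whole at 7 days, so that fewer cells of a type and less RNA per cell cannot be told apart. No probe set used here is named for the transgene, and the line labels were not checked by it.

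Phytochromes are red and far-red light receptors that carry a bilin chromophore. Biliverdin reductase converts the precursor of that chromophore, so that the receptors of a cell that makes the enzyme stay without it. Jasmonates are lipid-derived hormones of defence and growth restraint, whose active form is the isoleucine conjugate. Glucosinolates are sulfur-rich defence compounds of the Brassicaceae, which are cleaved by myrosinases and related beta-glucosidases, some of them held in endoplasmic reticulum (ER) bodies. Members of the group belong to these and to other stress and hormone pathways, and 14 of the 38 have no gene name in the tables used here.

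Of the 38 probe sets, 22 could be assigned to 1 gene, 13 from the platform table and 9 from the gene names of the study's Data Set, and 2 match several genes. The Data Set holds only probe sets that the study had chosen between the pBVR lines on these same arrays. The 9 are CYP94B1, RGLG3, MYB34, CYP81F4, MLP-300B, PROPEP4, SAUR11 (AT5G66260), MYB74 and CYP87A2. Every member found in a pathway list below was named in this way. The pathways described therefore depend on which probe sets could be named, and are not independent evidence on the 38. Differences of mean log2 signals from No-0 WT ran from 1.28 to 2.61 in CAB3::pBVR2 (median 1.44) and from −0.17 to 0.33 in 35S::pBVR3 (median 0.20). Over the 15436 probe sets that passed a filter on signal, which kept all 38 members, the corresponding medians were 0.02 and −0.03. With limma and Benjamini-Hochberg adjustment, 35 members were called higher in CAB3::pBVR2 than in No-0 WT, where 16.7% of all kept probe sets were called higher. Against 35S::pBVR3 the count was 18, where the share called higher over all kept probe sets was 1.74%. Between 35S::pBVR3 and No-0 WT the test called 0 members, where 4.25% of kept probe sets were called higher and 5.29% lower. The count was also 0 at an unadjusted p under 0.05 and in the same fit without limma's moderated variances. With a replicate block, calls between the pBVR lines rose from 268 to 637 higher, and those between 35S::pBVR3 and No-0 WT from 656 to 1167 higher and from 817 to 1323 lower. All these contrasts entered the choice, and nothing is read from the counts.

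The large rises in CAB3::pBVR2 were counted by the position of 35S::pBVR3. In all, 895 probe sets met the criteria on signal and on rise and did not overlap with No-0 WT, and in 839 of them 35S::pBVR3 lay above the window of 0.35. Exactly 54 of the 895 (6.03%) lay within the window and 2 below it. Of the 54, 38 had no overlap with the 35S::pBVR3 arrays and 16 did. The median difference between 35S::pBVR3 and No-0 WT over the 895 was 0.96. The same criteria turned downward gave 1137 falls, of which 61 (5.37%) lay within the window, and 58 of these were separated from both lines. Of the 15436 kept probe sets, 8700 lay within the window. The rises and falls were picked by size, and both differences subtract the same No-0 WT arrays, so that nothing is read from these shares.

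**Figure D1:**
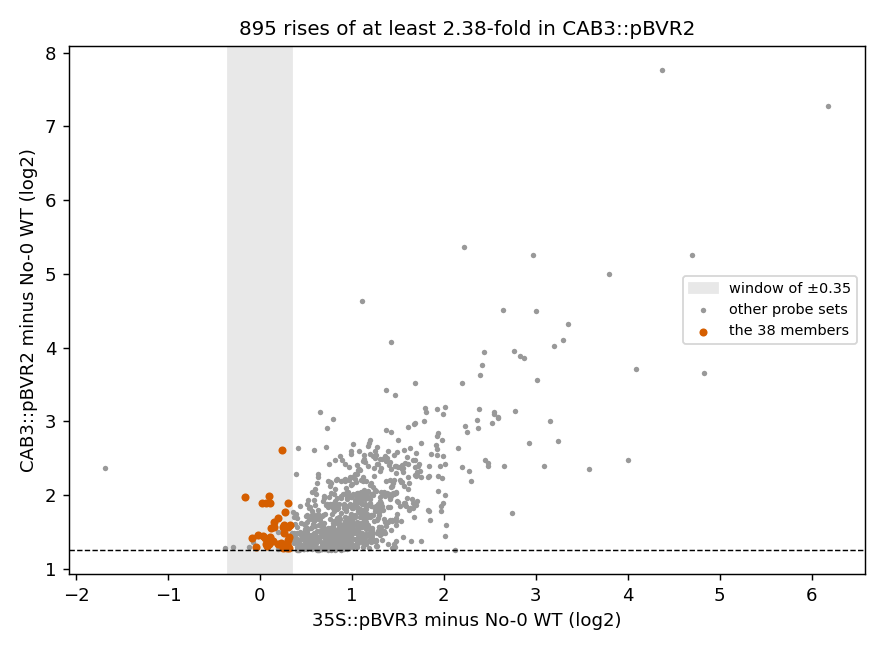
Each point is one of the 895 probe sets that were at least 2.38-fold higher in CAB3::pBVR2 than in No-0 WT, plotted by the difference of mean log2 signals of 35S::pBVR3 from No-0 WT (x axis) and of CAB3::pBVR2 from No-0 WT (y axis), with the window of ±0.35 shaded and the minimum rise dashed. The 38 members lie in the shaded window at 1.28 to 2.61, and 839 points lie to its right.

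The jasmonate pathway was represented by 2 members, both named by the Data Set. CYP94B1 encodes a cytochrome P450 that oxidises jasmonoyl-isoleucine, the active hormone, and lies on chromosome 5 from 25408821 to 25410725 of TAIR10.1. Its signals on the 3 arrays of each line were 62.6, 95.2 and 93.5 in No-0 WT, 68.6, 90.6 and 94.7 in 35S::pBVR3, and 392, 383 and 191 in CAB3::pBVR2. Both other lines overlapped, and the lowest CAB3::pBVR2 array was 1.01 above the highest other array on the log2 scale. RGLG3, a RING-type ubiquitin ligase that acts in jasmonate responses (chromosome 5, 25606771 to 25609306), gave 186, 180 and 137 in No-0 WT, 135, 184 and 233 in 35S::pBVR3, and 600, 649 and 603 in CAB3::pBVR2. The CAB3::pBVR2 arrays of RGLG3 lay within 1.08-fold of each other, and its gap of 1.36 to the next array was the widest of the 38.

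Of the 23 genes listed for jasmonate signalling and turnover, 7 were measured under a name, and the 5 that are not members were read with the test. MYC2, the master bHLH factor of jasmonate responses, MYC4, a close relative, and the repressors JAZ1 and JAZ7 rose in CAB3::pBVR2 against No-0 WT, and MYC3 did not pass (4 higher, 0 lower, median 1.91). MYC2 rose by 1.91 against No-0 WT (adjusted p = 0.000248, limma) and by 1.23 against 35S::pBVR3 (adjusted p = 0.011). JAZ1 rose by 2.47 against No-0 WT (adjusted p = 0.000128, limma) and by 1.58 against 35S::pBVR3 (adjusted p = 0.00605). For MYC4 the difference from 35S::pBVR3 was 0.82 (adjusted p = 0.0548) and for JAZ7 1.39 (adjusted p = 0.136). MYC2, JAZ1 and JAZ7 were named by the Data Set, so that their direction is not independent evidence. Of the 2 named by the platform table, MYC4 and MYC3, 1 was called higher against No-0 WT (median 0.88). Over all kept probe sets the share called higher was 16.7%. Unlike the members, MYC2, JAZ1 and JAZ7 had 35S::pBVR3 means of 0.69, 0.89 and 1.79 above No-0 WT, and MYC4 0.37, though none of these passed the test (adjusted p = 0.0889, 0.062, 0.0556 and 0.324, limma). OPCL1, the only measured one of 15 jasmonate synthesis genes, rose by 1.16 against No-0 WT (adjusted p = 0.0274, limma), and its difference of 0.82 from 35S::pBVR3 did not pass (adjusted p = 0.196). The call of OPCL1 was lost without either of No-0 WT replicates 2 and 3 or CAB3::pBVR2 replicates 1 and 3 (adjusted p up to 0.0903 over all alternatives). It was also lost without a filter on signal and in the fit without moderated variances.

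Indole glucosinolate synthesis was represented by its regulator and by a modifying enzyme, both named by the Data Set. MYB34 (ATR1), a MYB factor that activates the indole branch, lies on chromosome 5 from 24494291 to 24496371. Its signals were 93.6, 115 and 162 in No-0 WT, 180, 115 and 126 in 35S::pBVR3, and 626, 262 and 357 in CAB3::pBVR2. CYP81F4, a P450 that hydroxylates the indole ring of indole glucosinolates (chromosome 4, 17590772 to 17592920), gave 1422, 1722 and 1744 in No-0 WT, 1555, 2508 and 1933 in 35S::pBVR3, and 6758, 5297 and 4785 in CAB3::pBVR2. For both genes the lines other than CAB3::pBVR2 overlapped, with 3.23-fold (MYB34) and 3.42-fold (CYP81F4) higher mean signals in CAB3::pBVR2 than in No-0 WT. Of the other 4 measured genes of a list of 38 for this pathway, GSL-OH, the dioxygenase of the aliphatic side chain, rose by 1.69 against No-0 WT and by 1.29 against 35S::pBVR3 (adjusted p = 0.000755 and 0.0124, limma). UGT74B1, AOP3 and BCAT4 did not pass, and the median of the 4 was 0.13.

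MLP-300B, also called JAL32, is a jacalin-type lectin gene of the family of myrosinase-binding-like proteins and lies on chromosome 3 from 5585872 to 5587798. It gave 147, 124 and 208 in No-0 WT, 154, 295 and 143 in 35S::pBVR3, and 395, 576 and 457 in CAB3::pBVR2. One 35S::pBVR3 array stood above all No-0 WT arrays here. The probe set that matches both AT5G38550 and AT5G38540 gave 47.9, 50.6 and 51.4 in No-0 WT, 38.2, 105 and 61.9 in 35S::pBVR3, and 138, 193 and 128 in CAB3::pBVR2, and the signals of both genes cannot be separated.

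The next genes along the chromosome from MLP-300B are JAL33, at 494 bases, and JAL34, both of the same lectin family, and neither is a member. JAL33 rose by 1.39 in CAB3::pBVR2 against No-0 WT and by 1.02 against 35S::pBVR3 (adjusted p = 0.00128 and 0.0229, limma). JAL34 rose against No-0 WT by 1.22 in CAB3::pBVR2 and by 1.00 in 35S::pBVR3 (adjusted p = 0.000171 and 0.00812, limma), with a difference of 0.22 between the pBVR lines that did not pass (adjusted p = 0.375). In the list of 17 genes for ER bodies and jacalin lectins, 7 of the 9 measured genes that are not members rose against No-0 WT (median 1.79), 5 rose against 35S::pBVR3 (median 1.02) and 3 rose between No-0 WT and 35S::pBVR3 (median 0.73). The shares called higher over all kept probe sets were 16.7%, 1.74% and 4.25%. The 6 genes named by the platform table gave 4, 2 and 2 of these calls (medians 1.31, 0.82 and 0.51). The 3 named by the Data Set gave 3, 3 and 1. TSA1, an ER-body protein homologous to NAI2, rose by 4.08 against No-0 WT and by 2.65 against 35S::pBVR3 (adjusted p = 6.17e-05 and 0.0029, limma). NAI2, which is needed to form ER bodies, rose by 1.79 and 1.21 (adjusted p = 0.000683 and 0.0189, limma). The beta-glucosidase BGLU18 rose by 2.91 and 2.18 (adjusted p = 0.000774 and 0.0136, limma), whereas for PYK10, the main beta-glucosidase of seedling ER bodies, the differences were 0.13 and −0.06 and did not pass. The count of 5 against 35S::pBVR3 depended on single arrays. It was 1 (TSA1) without replicate 1 of CAB3::pBVR2, 4 and 3 without its replicates 2 and 3, and 3, 2 and 3 without replicates 1, 2 and 3 of 35S::pBVR3. It was also 1 without a filter on signal, where MEB2, JAL33, NAI2 and BGLU18 were lost. In the fit without moderated variances it was 2, where JAL33, NAI2 and BGLU18 were lost, and with the replicate block 6, where JAL22 passed. The count of 3 between No-0 WT and 35S::pBVR3 ran from 2 to 4 over the alternatives. There the call of TSA1 was lost in 9 of 16 (adjusted p up to 0.119, limma). The calls against 35S::pBVR3 were lost for MEB2, an ER-body membrane protein, on leaving out replicate 2 of 35S::pBVR3 or 1 or 3 of CAB3::pBVR2, for JAL33 on leaving out any one 35S::pBVR3 array or replicate 1 or 2 of CAB3::pBVR2, for NAI2 on leaving out replicate 1 or 2 of 35S::pBVR3 or 1 or 3 of CAB3::pBVR2, and for BGLU18 on leaving out replicate 1 or 3 of 35S::pBVR3 or 1 of CAB3::pBVR2 (adjusted p up to 0.0616, 0.0756, 0.0631 and 0.061 over all alternatives, limma). BGLU18, TSA1 and MEB2 of this list were named by the Data Set, which was chosen between the pBVR lines on these arrays. Their calls are therefore not independent evidence.

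PROPEP4, a precursor of the danger peptides that plants release on wounding, lies on chromosome 5 from 3122731 to 3124003. Its signals were 25.5, 45.4 and 27.6 in No-0 WT, 27.8, 51.2 and 15.9 in 35S::pBVR3, and 103, 138 and 136 in CAB3::pBVR2. Only 1 of the 3 arrays of either other line was above background. It was the only measured gene of a list of 8 danger peptides and receptors, and it had the lowest mean difference between 35S::pBVR3 and No-0 WT of the 38, at −0.17.

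SAUR11 (AT5G66260), of the small auxin-upregulated RNA family, had the second largest rise, with 21.9, 33.3 and 41.1 in No-0 WT, 38.7, 28.4 and 33.3 in 35S::pBVR3, and 180, 121 and 85.6 in CAB3::pBVR2. It lies on chromosome 5 from 26471224 to 26471786, and 2 of 3 arrays were above background in each of the other lines. Among 3 other measured auxin genes of a list of 21, GH3.5, which conjugates auxin to amino acids, rose by 1.28 against No-0 WT (adjusted p = 0.0076, limma). IAA29 and GH3.3 did not pass, and 0 of the 3 passed between the pBVR lines, where 0 had an unadjusted p under 0.05.

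MYB74, a MYB factor known from salt and drought responses, lies on chromosome 4 from 2618372 to 2619947. It gave 219, 264 and 263 in No-0 WT, 309, 295 and 189 in 35S::pBVR3, and 608, 846 and 473 in CAB3::pBVR2. In the list of 23 abscisic acid and dehydration genes, 5 others were measured, of which 4 rose and 1 fell against No-0 WT (median 1.88). ATHB7, a homeobox factor induced by drought, rose by 2.74 against No-0 WT and by 1.55 against 35S::pBVR3 (adjusted p = 0.000423 and 0.0296, limma). ABI2, a phosphatase that restrains abscisic acid signalling, and the dehydrin ERD10 rose against No-0 WT by 2.34 and 1.88 (adjusted p = 0.00094 and 0.0016, limma) without passing against 35S::pBVR3 (adjusted p = 0.0588 and 0.0635). COR15B, a cold-regulated chloroplast protein, fell against both lines, by 1.07 and by 1.67 (adjusted p = 0.0147 and 0.00635, limma). Against 35S::pBVR3, ERD10 passed with the replicate block (adjusted p = 0.0465, limma), and ATHB7 was lost on leaving out any one 35S::pBVR3 array (up to 0.0941). ATHB7 was also lost there without a filter on signal and in the fit without moderated variances. COR15B was lost against No-0 WT without replicate 2 of No-0 WT or of CAB3::pBVR2 (up to 0.0552). ATHB7, ABI2 and ERD10 were named by the Data Set, so that their direction is not independent evidence.

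**Figure D2:**
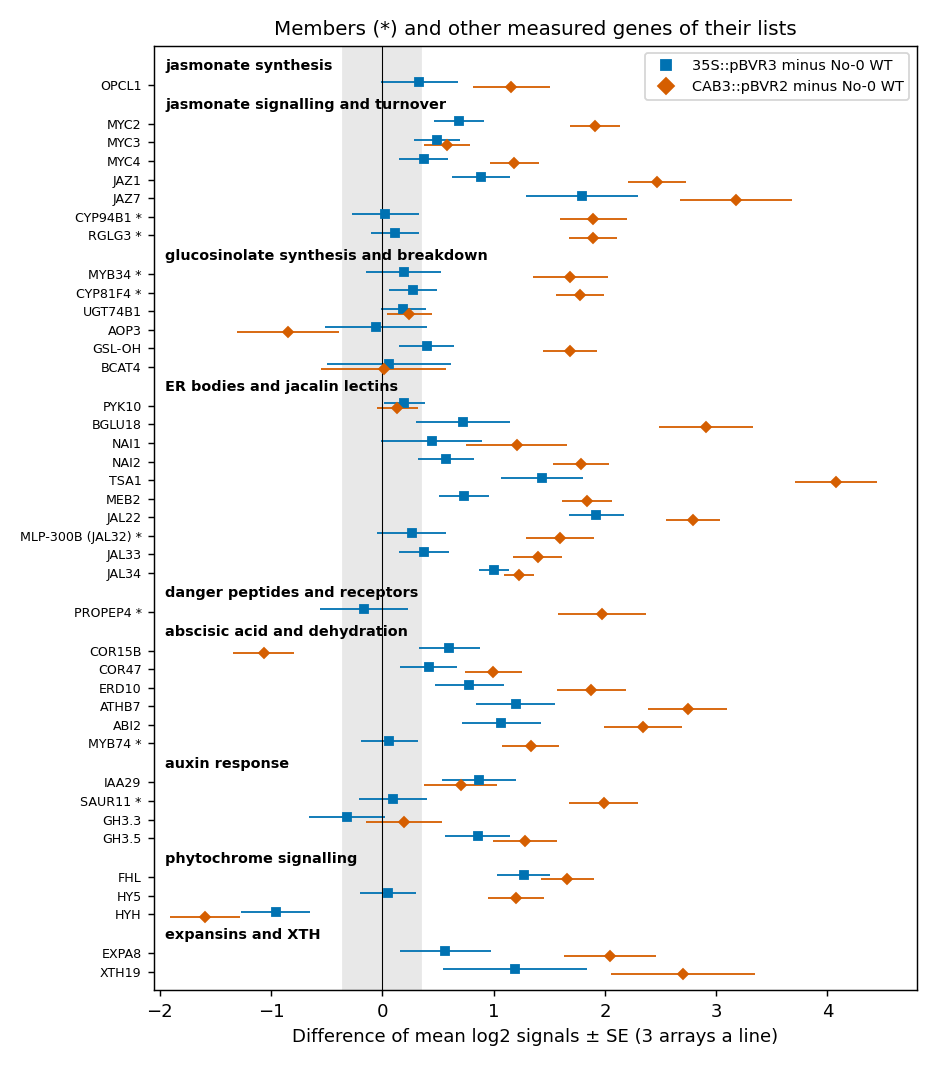
Differences of mean log2 signals from No-0 WT for 35S::pBVR3 (squares) and CAB3::pBVR2 (diamonds), with the SE of the limma fit, for members (marked with an asterisk) and the other measured genes of the same lists. The members lie in the shaded window of ±0.35 for 35S::pBVR3 by choice, whereas MYC2, JAZ1, TSA1 and JAL22 lie to its right for both lines.

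The remaining members with an annotation were single genes of their kinds. AT5G38030, annotated as an efflux carrier of the MATE family, gave 52.8, 52.9 and 56.7 in No-0 WT, 75.7, 69.5 and 56.5 in 35S::pBVR3, and 331, 235 and 104 in CAB3::pBVR2. The difference between the highest and the lowest CAB3::pBVR2 array was 3.18-fold. AT3G25930, annotated as a universal stress protein, gave 155, 192 and 184 in No-0 WT, 169, 233 and 257 in 35S::pBVR3, and 483, 327 and 560 in CAB3::pBVR2. CYP87A2, a P450 of unassigned role here, gave 36.6, 32.1 and 59.2 in No-0 WT, 38.5, 61.4 and 46.9 in 35S::pBVR3, and 110, 114 and 91.7 in CAB3::pBVR2. Its arrays were close to each other within CAB3::pBVR2, at 1.247-fold from the lowest to the highest, but its mean of 105 was just above the minimum of 100.

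AT5G65300, AT4G40070 and AT4G22160 are listed only as expressed proteins, and their mean signals in CAB3::pBVR2 were 3.10-fold, 2.69-fold and 2.49-fold those in No-0 WT. AT1G10050, which RefSeq also lists as ATXYN2, gave 64.6, 37.7 and 84.7 in No-0 WT, 56.1, 71.6 and 96.3 in 35S::pBVR3, and 138, 160 and 169 in CAB3::pBVR2. AT5G52280, AT3G46700, AT1G70420, AT1G14240, AT2G32030, AT5G42250 and AT2G12400 carry no description in the tables used here. Their differences between CAB3::pBVR2 and No-0 WT were 1.57, 1.56, 1.56, 1.44, 1.34, 1.28 and 1.28. A second probe set of several genes, AT1G54300 and AT3G05770, had a difference of 1.34. The 14 probe sets without a name differed by 1.29 to 2.61.

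**Figure D3:**
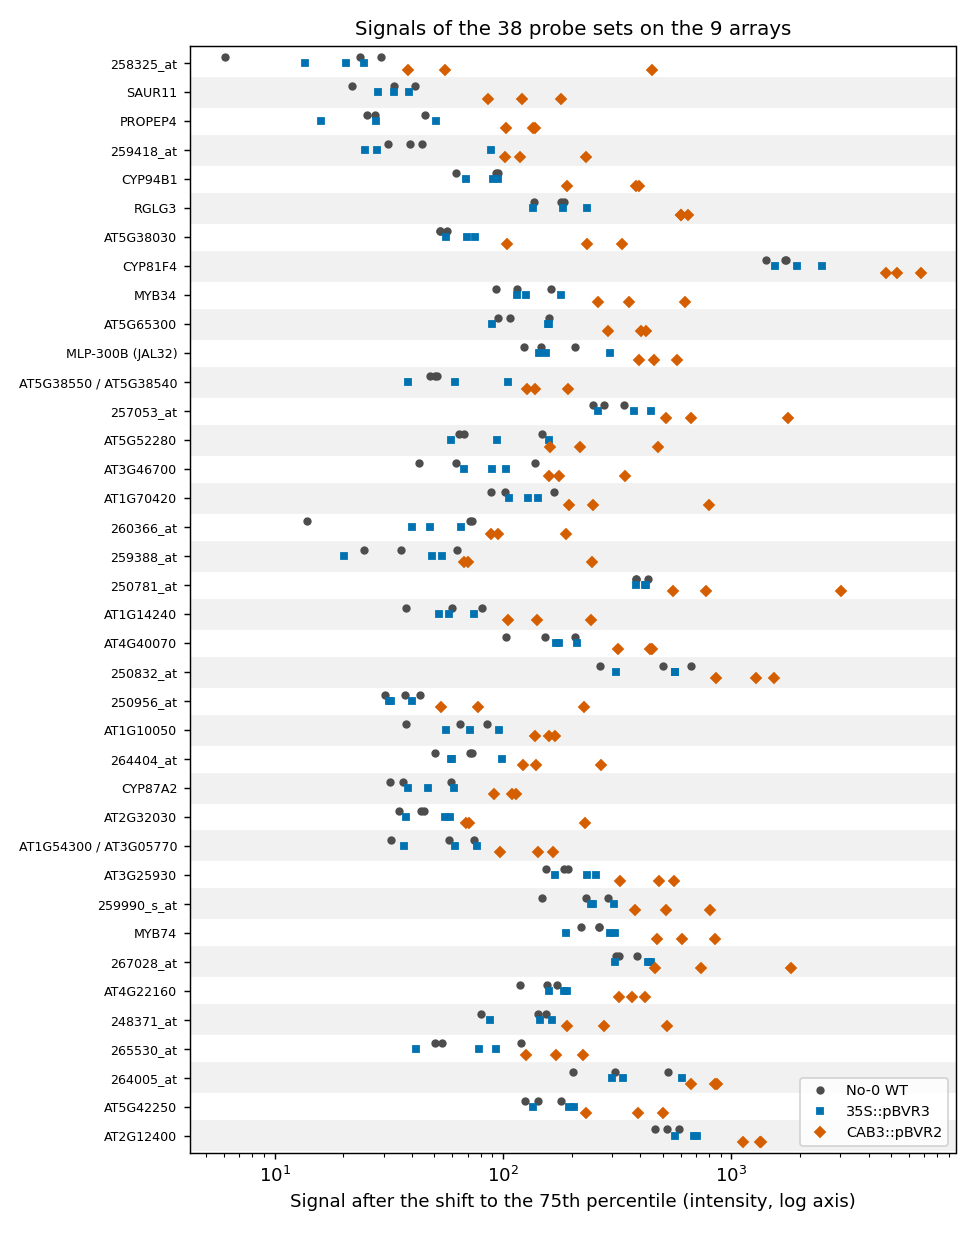
Signals (intensity after the shift of each array to its 75th percentile, log axis) of the 38 members, 1 point for each array, ordered by the difference between CAB3::pBVR2 and No-0 WT. The diamonds of CAB3::pBVR2 lie right of all other points in every row by choice, and in 9 rows a single diamond stands at least 2-fold above the next.

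The arrays of CAB3::pBVR2 differed more for the members than for other probe sets. The median within-line SD of log2 signals was 0.56 in CAB3::pBVR2, 0.39 in No-0 WT and 0.35 in 35S::pBVR3 for the members, against 0.25, 0.22 and 0.24 for all kept probe sets. The choice used these same signals, the probe sets were not matched for signal, and nothing is read from the difference. In 9 members the highest CAB3::pBVR2 array was at least 2-fold above the next, in 5 of them on replicate 2, in 3 on replicate 3 and in 1 on replicate 1, and in 11 members all 3 arrays lay within 1.5-fold. The largest rise of all, the unnamed 258325_at, came from 55.5, 452 and 38.5 in CAB3::pBVR2. Without replicate 2 its difference from No-0 WT fell from 2.61 to 1.52. In 35S::pBVR3 it was not above background on any array, so that its signal in CAB3::pBVR2 was at least 3.2-fold higher, and in No-0 WT it was above background on 1 of 3 arrays. Similarly, AT1G70420 gave 195, 801 and 247 in CAB3::pBVR2, against 88.7 to 168 in No-0 WT. Its difference from No-0 WT was 0.93 without replicate 2. AT2G32030 gave 70.8, 68.6 and 230 in CAB3::pBVR2, with a difference of 0.77 without replicate 3.

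Whichever single array was left out, 28 of the 38 members kept a difference of at least 1 between CAB3::pBVR2 and No-0 WT, and 12 kept the minimum rise. The lowest such difference was 0.69. SAUR11, CYP94B1 and RGLG3 were the 3 members that met all criteria whichever array was left out. The highest array within CAB3::pBVR2 was replicate 1 in 15 members, replicate 2 in 14 and replicate 3 in 9. Within No-0 WT it was replicate 3 in 23 members.

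The likeness of 35S::pBVR3 to No-0 WT was known only within wide limits. The SE of that difference in the limma fit was 0.17 to 0.89 for the 38 members (median 0.36), and the 95% interval reached a median of 0.80 to either side. Even the narrowest interval reached 0.37 to either side, further than the window, so that none could lie within it whatever the difference. The count of 0 members with an interval within the window was therefore fixed by the width, and nothing is read from it. The upper bound of the interval was at least 1 in 15 members, for differences that the choice had limited to the window. The differences were above 0 in 34 members and below 0 in 4. They are values that the choice used, from the same No-0 WT arrays as the rise, and nothing is read from their sign.

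Each array number was then left out in turn, the rule was applied to the other 6 arrays, and the chosen probe sets were read on the 3 arrays that had no part in the choice. The choices held 60, 62 and 55 probe sets without replicates 1, 2 and 3, of which 18, 21 and 17 are among the 38. On the left-out arrays CAB3::pBVR2 was above No-0 WT in 53, 60 and 53 of them, with median differences of 1.30, 1.35 and 1.06 against 1.65, 1.53 and 1.45 on the arrays used for the choice. Over all kept probe sets the shares above No-0 WT were 55.2%, 49.2% and 47.4%. The minimum rise was reached in 31, 33 and 21, against 8.97%, 8.12% and 7.00% of all kept probe sets.

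On the left-out arrays 35S::pBVR3 lay within the window in 17 of 60, 18 of 62 and 25 of 55 chosen probe sets, and above it in 39, 39 and 23. In each choice the share within the window was below that over all kept probe sets (47.8%, 48.8% and 48.6%). The median differences of 35S::pBVR3 from No-0 WT were 0.52, 0.55 and 0.16. CAB3::pBVR2 was above both other lines in 44, 57 and 50. With 1 array of each line these are values without a replicate check, the 3 choices share arrays, and both differences share the No-0 WT array. SAUR11, PROPEP4, CYP94B1, CYP81F4, AT5G65300 and AT5G52280 were in all 3 choices.

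**Figure D4:**
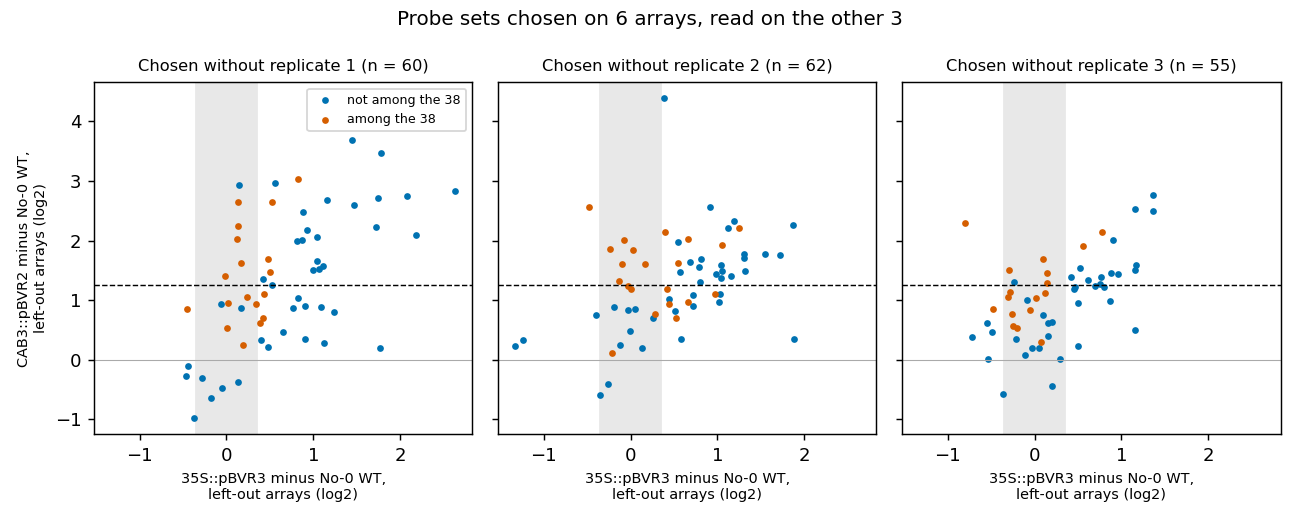
For the probe sets chosen on 6 arrays, the difference of 35S::pBVR3 (x axis) and of CAB3::pBVR2 (y axis) from No-0 WT on the 3 arrays left out, on the log2 scale, with the window shaded and the minimum rise dashed. Most points lie above 0 on the y axis (53 of 60, 60 of 62 and 53 of 55), and 39, 39 and 23 lie to the right of the window.

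HY5, a bZIP factor that promotes photomorphogenesis downstream of phytochromes, was 1 of 609 probe sets that met all criteria except the minimum rise. OPCL1 was another. HY5 gave 182, 153 and 188 in No-0 WT, 175, 140 and 238 in 35S::pBVR3, and 348, 329 and 552 in CAB3::pBVR2. The rise was 1.20 against No-0 WT and 1.15 against 35S::pBVR3 (adjusted p = 0.00561 and 0.0242, limma), with a difference of 0.05 between 35S::pBVR3 and No-0 WT (adjusted p = 0.927). The call of HY5 against 35S::pBVR3 was lost on leaving out replicate 1 or 2 of 35S::pBVR3 or 3 of CAB3::pBVR2 (adjusted p up to 0.0796 over all alternatives, limma). It was also lost without a filter on signal and in the fit without moderated variances. HY5 was named by the Data Set, which was chosen between the pBVR lines, so that its difference from 35S::pBVR3 is not independent evidence. Its close relative HYH went the other way and fell by 1.59 against No-0 WT (adjusted p = 0.00383, limma). FHL, an import factor of phytochrome A, rose against No-0 WT by 1.66 in CAB3::pBVR2 and by 1.27 in 35S::pBVR3 (adjusted p = 0.000692 and 0.0171, limma), the latter lost without replicates 1 or 2 of No-0 WT or 1 or 3 of 35S::pBVR3 (up to 0.0642). The FHL call in 35S::pBVR3 was also lost without a filter on signal. HY5, HYH and FHL were the 3 measured genes of a list of 25 for phytochrome signalling.

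At the minimum rise the members just inside were AT2G12400 and AT5G42250, both at 1.28, and just outside were 254389_s_at at 1.247 and ZW9 at 1.236. At the minimum signal they were CYP87A2 with 105 and 250956_at with 119, against 87.6 for scpl40 and 80.1 for NIC2 outside. At the window the probe set of AT5G38550 and AT5G38540 (0.33) and AT4G40070 (0.32) lay inside, and 256994_s_at (0.36) and AT5G17700 (0.37) outside. The separation from other arrays was 0.01 in AT5G52280 and 0.06 in 267028_at, against −0.01 in 252222_at and −0.07 in AT4G28703. By the rise alone 609 probe sets were left out, by the window alone 455, by the signal alone 32 and by the separation alone 27.

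Named members lay on all 5 chromosomes, with 4, 2, 3, 4 and 9 on chromosomes 1 to 5. The share on chromosome 5 was 40.9% of 22, against 23.6% of all named kept probe sets. No member was among the 2 genes to either side of another member. Of those 88 neighbours, 21 were measured, of which 5 rose and 3 fell in CAB3::pBVR2 against No-0 WT (median 0.17). Over all kept probe sets 16.7% were called higher and 20.2% lower, and nothing is read from these counts. AT4G40080, beside AT4G40070, rose by 1.21 against No-0 WT and by 0.72 against 35S::pBVR3 (adjusted p = 0.00086 and 0.0387, limma). AT5G66250, beside SAUR11, rose against No-0 WT by 1.31 in CAB3::pBVR2 and by 0.95 in 35S::pBVR3 (adjusted p = 0.000288 and 0.0128, limma). RPL15, a plastid ribosomal protein gene 110 bases from AT3G25930, fell by 2.13 in CAB3::pBVR2 and by 0.99 in 35S::pBVR3 (adjusted p = 4.68e-05 and 0.0159, limma). The call of AT4G40080 against 35S::pBVR3 was lost on leaving out any one array except No-0 WT replicates 2 and 3 (adjusted p up to 0.117, limma). It was also lost without a filter on signal and in the fit without moderated variances. The calls in 35S::pBVR3 were lost for AT5G66250 without No-0 WT replicate 2 (up to 0.0521) and for RPL15 without No-0 WT replicates 1 or 2 or 35S::pBVR3 replicate 3 (up to 0.0587). RPL15 was also lost there without a filter on signal.

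Marker genes of the mesophyll moved in the opposite direction to the members. Of 12 such genes, the 5 measured ones (LHCA1, LHCB6, RCA, CA1 and PSAE-1) all fell in CAB3::pBVR2 against No-0 WT (median −2.33) and against 35S::pBVR3 (median −1.49, against 0.03 over all kept probe sets). RCA was lost against 35S::pBVR3 without CAB3::pBVR2 replicate 3 or without a filter on signal (adjusted p up to 0.054, limma). Over all kept probe sets 20.2% were called lower against No-0 WT and 6.69% against 35S::pBVR3. Between 35S::pBVR3 and No-0 WT the median of the 5 was −0.59. LHCA1, LHCB6 and PSAE-1 were called lower there, where 5.29% of all kept probe sets were. These calls were lost in 9 of 16 alternatives for LHCA1, in 3 for PSAE-1 and in 0 for LHCB6. The summed signal of the 5 markers was 79141 to 82482 in No-0 WT, 45308 to 61548 in 35S::pBVR3 and 17939 to 20725 in CAB3::pBVR2. These genes are also light-regulated, and 3 of the 5 were named by the Data Set. Of 14 root markers, EXPA7 and EXPA18 were measured, with a summed signal of 86.4 to 134 in No-0 WT, 51.0 to 160 in 35S::pBVR3 and 103 to 235 in CAB3::pBVR2, and neither passed any contrast. The 6 epidermis and 7 vasculature markers were not measured under a name. No measured marker was listed at 0. The part of a changed share of cell types in the rise of the members was not tested.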

How the data were processed

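The authors deposited probe set intensities on a linear scale, produced by MAS5 (version not given in the sources used here). Zeros, 3 in all, were replaced by the lowest value above 0, 0.1. Log2 signals were shifted by the 75th percentile of each array (528.6 to 615.5 before the shift), as in the methods, and 64 control probe sets were left out. The highest of 27 bacterial control probe sets (27.0 to 48.0) was the background of an array. The number of arrays limits the precision.

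Probe sets at or above the 40th percentile on at least 1 array were kept (15436) and fitted with limma 3.58.1 in R 4.3.3, all 9 arrays in 1 fit without a block, adjusted by Benjamini-Hochberg with a threshold of 0.05. The fit was tested on simulated data with independent noise, so that the shared deviations of arrays of the same replicate number (below) were not covered. The p-values measure the spread between RNA extractions of 1 line each. Of 13513 probe sets with 1 gene, 13436 matched RefSeq (TAIR10.1), which gave the positions, 503 had several genes and 8730 none, and the Data Set named 346 more.

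The members, the lists and the tests were chosen with earlier results of these data known. All members are accounted for, with array values for those that open a role or differ most, and for at most 4 other genes a list. Members with a single high array and the named neighbours were picked once their values were known.

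Arrays of the same replicate number deviated together from their line means (r = 0.207 to 0.391 in 9 pairs, across probe sets, which are not independent), unlike the 18 pairs of different numbers (−0.263 to −0.051), although the labels do not say what a number shares. The fit with the replicate block was therefore an alternative, beside other scalings, an offset, other filters, other limits of the rule and each array left out. Promoter motifs were not searched, as no sequence was used here.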

Additional observations from a re-analysis of the deposited data

How the results depend on the processing

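The number of probe sets that met the rule was 38, and 40 under quantile normalization, 55 on the values as deposited and 35 after a shift by the median, which shared 35, 29 and 28 with the 38. All 4 scalings and the offset held 13 in common. An offset of 32 gave 24, a signal minimum of 200 gave 23, a window of 0.2 gave 20 and of 0.5 gave 77, a minimum rise of 1 gave 87 and of 1.5 gave 16, and with overlap allowed there were 65. Leaving out 1 array gave 28 to 65, with 65 and 62 without 35S::pBVR3 replicates 1 and 2 and 60 without CAB3::pBVR2 replicate 3. The medians on left-out arrays ran from 1.06 to 1.35. The cause was not tested where the limits of the rule were kept. Between CAB3::pBVR2 and No-0 WT 5697 probe sets were called (2585 higher, 3112 lower, and 3545 and 2529 on the values as deposited), and 4418 to 5600 without 1 array. Between the pBVR lines 1301 were called (268 higher, 1033 lower, and 393 and 834 on the values as deposited, 637 and 1379 with the replicate block), 695 without a filter on signal, 2016 with the replicate block and 801 to 1159 without 1 array, lowest without 35S::pBVR3 replicate 1. Between 35S::pBVR3 and No-0 WT 1473 were called (656 higher, 817 lower, and 786 and 581 on the values as deposited), 293 without a filter, of which 168 were higher, 2490 with the replicate block and 309 to 1343 without 1 array, lowest without No-0 WT replicate 2. With the replicate block the calls of members were 38, 18 and 0.

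Among the named genes outside the rule, calls in CAB3::pBVR2 against both other lines held in all 16 alternatives for JAZ1, MYC2, GSL-OH, TSA1 and RPL15. The same was true of LHCA1, LHCB6, CA1 and PSAE-1. JAZ1, MYC2, TSA1 and RPL15 were named by the Data Set, as were 3 of the 5 measured mesophyll markers. None of the named genes that were called turned its direction. On the values as deposited the median difference of all kept probe sets between CAB3::pBVR2 and No-0 WT was 0.17, against 0.02.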
